A study of Mus musculus with 64 samples.

Results

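The 10 genes described here encode major urinary proteins (MUPs) and were followed in livers of WT mice and AS mice that received corticosterone (CORT) without pause. They were taken by symbol as Mup1, Mup3, Mup7, Mup10, Mup12, Mup16, Mup17, Mup18, Mup20 and Mup21, 10 of the 55573 gene rows of the count table and 10 of the 22 annotated genes named Mup with a number. Livers came from 20 male mice aged 10 to 18 weeks, with 5 mice in each of 4 groups: WT vehicle, WT CORT, AS vehicle and AS CORT. AS mice, a model of Angelman syndrome, carry a deletion of exon 5 of Ube3a, a ubiquitin ligase gene, on the maternal allele and an intact paternal allele, which is silenced in neurons but not in liver. WT and AS mice were F1 hybrids of C57BL/6J and 129sv parents. Pellets holding 20 mg CORT, or vehicle, stayed under the skin for 5 days before the liver was collected. RNA was measured by sequencing of stranded mRNA libraries, and the values are read counts per gene, scaled to a common library size (CPM) with the TMM normalization of edgeR.

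MUPs are small lipocalins, barrel-shaped proteins with a pocket for hydrophobic ligands. Hepatocytes make and secrete them, the kidney filters them, and in urine they carry and slowly release volatile pheromones or act as signals themselves. Their liver expression is known to be much higher in males, to depend on the pulsatile growth hormone pattern of males acting through STAT5, and to be influenced by androgen, thyroid hormone and glucocorticoids. The genes form a cluster on mouse chromosome 4 in which a group of near-identical copies lies between more divergent members. Mup20 encodes darcin, a male scent protein that attracts females, and Mup3 and Mup21 are divergent members.

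All 10 genes lie on the minus strand of chromosome 4 of GRCm38, and none overlaps another annotated gene. The divergent members lie together at the distal end of this stretch, Mup20 at chr4:62050234-62054158, Mup3 at chr4:62083476-62087342 and Mup21 at chr4:62147932-62150863. The near-identical members run from Mup7 at chr4:60066469-60070475 through Mup1 at chr4:60498012-60501960, Mup10 at chr4:60578260-60582199, Mup12 at chr4:60737383-60741326, Mup16 at chr4:61515592-61519531 and Mup17 at chr4:61591929-61595871 to Mup18 at chr4:61670177-61674136. How far their sequences differ decides which reads can be placed on a single gene. A stretch of 60 bases of the spliced coding sequence is therefore shown. It is the stretch without gaps in which the 10 members vary most, so that it is not typical of the whole coding sequence. Mup10, Mup12 and Mup16 are left out. The bases are read in the plus sense of each gene, with capitals for those that differ from Mup7 in the alignment of the members:

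Mup7: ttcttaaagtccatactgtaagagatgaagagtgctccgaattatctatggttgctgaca
Mup17: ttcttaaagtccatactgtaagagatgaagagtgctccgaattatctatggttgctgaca
Mup18: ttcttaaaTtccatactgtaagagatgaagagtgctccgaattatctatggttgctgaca
Mup1: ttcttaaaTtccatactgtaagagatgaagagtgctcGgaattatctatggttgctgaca
Mup20: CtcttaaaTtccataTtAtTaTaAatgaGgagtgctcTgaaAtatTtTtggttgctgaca
Mup21: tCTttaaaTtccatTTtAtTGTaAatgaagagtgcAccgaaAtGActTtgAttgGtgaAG
Mup3: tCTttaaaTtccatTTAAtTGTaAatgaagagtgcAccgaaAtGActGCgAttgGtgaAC

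Over these 60 bases Mup17 did not differ from Mup7, Mup18 differed at 1 base and Mup1 at 2 bases. Mup20 differed at 12, Mup21 at 19 and Mup3 at 21 bases. Over the whole coding sequence, the 7 near-identical members shared between 98.5% and 99.6% of their bases with each other. Mup20 shared 90.1% to 91.3% with them, Mup21 83.6% to 84.9% and Mup3 82.3% to 83.8%, and Mup3 and Mup21 shared 94.7% with each other. Reads were 100 bases long and came in pairs. The share of 100-base windows of a gene's transcripts found in no other gene is a rough measure of how much of it a single read can tell apart. A pair of reads can tell apart more. This share was 97.8% for Mup3, 95.5% for Mup21 and 61.2% for Mup20, whose remaining windows were found in the pseudogene Mup-ps19 only. In the near-identical members it ran from 12.9% in Mup18 to 44.3% in Mup1, and single windows were shared with up to 15 other genes. Values of single near-identical members are therefore uncertain, and their sum is given as well.

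**Figure D1:**
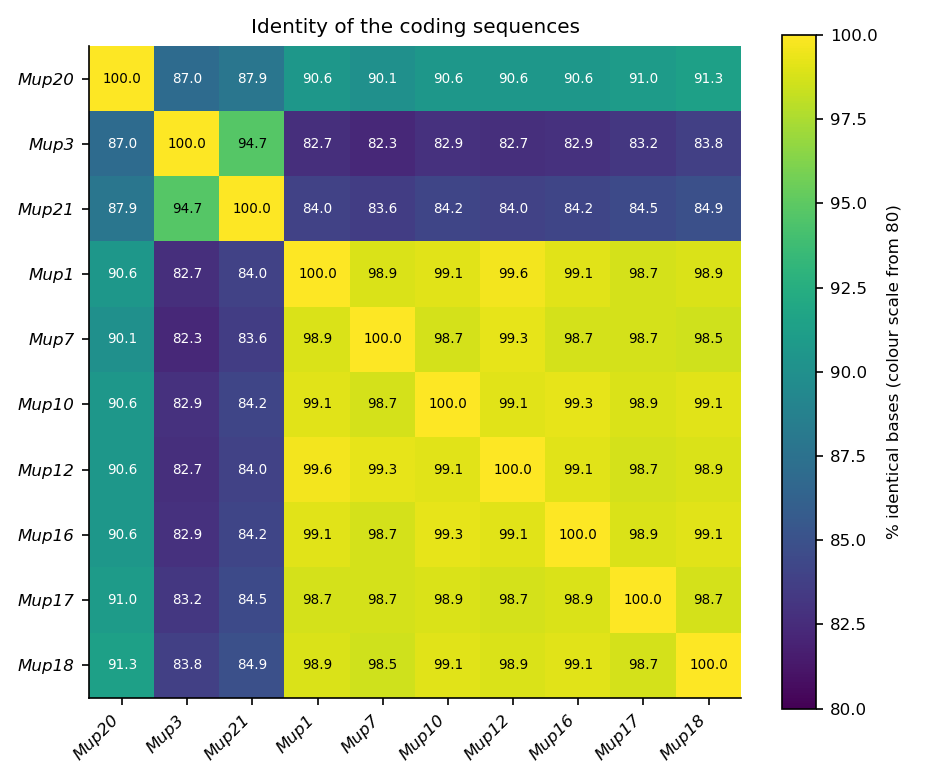
Percent identity of the coding sequences of the 10 genes, each row and column standing for a gene and the colour scale starting at 80%. Mup1, Mup7, Mup10, Mup12, Mup16, Mup17 and Mup18 form a block at 98.5% or more, while Mup20, Mup3 and Mup21 share at most 91.3% with any gene of this block.

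Between 18612550 and 20868924 reads per liver were counted on genes, and a count of 3 corresponded to 0.144 to 0.161 CPM, a floor that covers counting error only. Ube3a, the targeted gene, ranged from 41.8 to 54.4 CPM in the 10 WT livers and from 28.5 to 38.6 CPM in the 10 AS livers, without overlap. It was lower in AS mice with vehicle (log2 fold change -0.55, adjusted p = 0.019) and with CORT (-0.48, adjusted p = 0.013). The 6 hepatocyte markers, among them Alb, summed to 94123 to 126160 CPM in the 15 livers of the other groups and to 115470 to 140260 CPM in AS CORT livers, with no marker at 0. The 6 Kupffer cell markers summed to 114 to 211 CPM in vehicle livers and to 57.5 to 85.5 CPM in CORT livers, and the 7 pericentral markers ranged from 5621 to 13379 CPM with vehicle and from 4691 to 7631 CPM with CORT. The 6 periportal markers summed to 3689 to 6097 CPM in WT vehicle and 4214 to 5811 in WT CORT livers, with overlap, and to 3627 to 4286 in AS vehicle and 5428 to 6223 CPM in AS CORT livers, without overlap. The 4 blood markers, mostly globins, summed to 337 to 552 CPM in WT vehicle, 226 to 318 in WT CORT, 239 to 467 in AS vehicle and 121 to 189 in AS CORT livers, the last below every other group. The 4 T and B cell markers summed to 1.01 to 2.65 CPM with vehicle and to 0.099 to 0.524 CPM with CORT. The pancreas list summed to 33.9 to 44.1 CPM with vehicle and to 6.48 to 23.98 CPM with CORT, with its defining markers Cpa1 and Pnlip at 0 in all groups. The part of these markers in the results below was not tested, and in bulk liver fewer hepatocytes of a kind and less RNA per hepatocyte cannot be told apart. Of the AS CORT livers, L8 and L10 were the lowest of all 20 in Mup3 and Mup21, and values without these 2 mice are given where they matter.

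Of all members, Mup3 had the highest level in every group, counted from reads placed on a single gene. More windows of Mup3 than of the near-identical members are found in no other gene. The levels of near-identical members may therefore be too low, and their place in this order is uncertain. Per kilobase of exon it reached 5637 ± 489 CPM (SD, n = 5) in WT vehicle livers. Mup7 followed at 1732 ± 418, then Mup20 at 694 ± 124 and Mup21 at 317 ± 50.7 CPM per kilobase, and the values of these 4 genes did not overlap. Mup17, Mup1, Mup12 and Mup16 lay between 81.3 and 43.3 CPM per kilobase, and each overlapped its neighbour in this order, as Mup16 did with Mup18 at 12.6 ± 9.35. Mup10 was the lowest at 1.29 ± 0.340 CPM per kilobase. AS vehicle livers kept the same first 5 places, with Mup3 at 5071 ± 475 and Mup7 at 1038 ± 272 CPM per kilobase. With CORT, Mup20 took the second place, at 1181 ± 350 CPM per kilobase in WT and 396 ± 117 in AS mice, but in AS mice its values overlapped those of Mup21, which in turn overlapped those of Mup7.

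**Figure D2:**
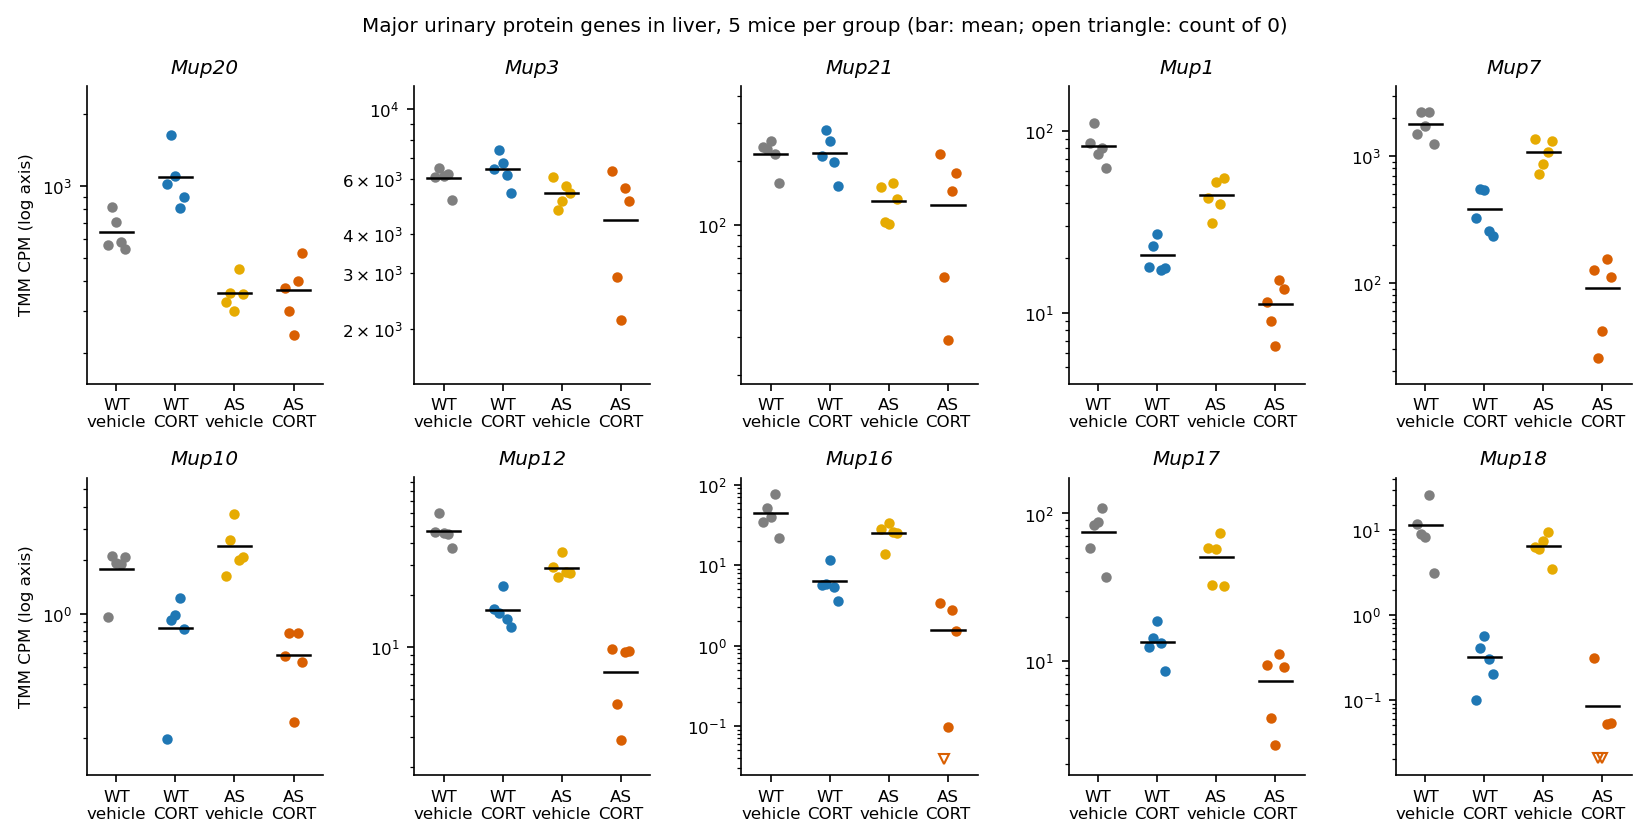
Level of each member in the 20 livers, in CPM on a log axis, with a panel for each gene, a dot for each mouse, a bar at the mean of the 5 mice and an open triangle for a count of 0. The near-identical members, from Mup1 to Mup18, sit lower with CORT in both genotypes, while Mup3 and Mup21 overlap between vehicle and CORT and Mup20 is higher with CORT in WT mice.

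The first comparison asked how CORT altered the MUP genes in WT liver. All 7 near-identical members fell and Mup20 rose, while Mup3 and Mup21 did not pass the threshold. CORT altered 18.6% of the 12273 genes tested at an adjusted p-value under 0.05, 9.9% with lower and 8.73% with higher expression. All 10 members passed the filter on low counts, and their median log2 fold change was -1.76, compared to -0.0047 for all genes tested. Mup10 and Mup18 passed this filter only through the vehicle groups, in which they were higher. Their falls in WT and AS mice, the p-values printed for these falls and this median are therefore a description. All p-values for single genes are from edgeR's quasi-likelihood test, adjusted by the Benjamini-Hochberg method over all genes tested.

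Mup7 carried most of the counts of the near-identical group. WT vehicle livers had 1254, 1506, 1737, 2212 and 2234 CPM of Mup7, and WT CORT livers had 235, 254, 323, 537 and 554 CPM. The groups did not overlap, and the highest CORT value was below the lowest vehicle value. Mup7 was 4.70-fold lower (log2 fold change -2.23 ± 0.388 SE, adjusted p = 0.00036). Mup1 fell from 82.4 ± 17.6 to 20.6 ± 4.37 CPM (SD, n = 5), which was 4.0-fold lower (adjusted p = 1.17e-06), and Mup17 fell from 75.4 ± 28.01 to 13.5 ± 3.66 CPM, 5.59-fold lower (adjusted p = 4.46e-05). Mup12, the copy nearest to Mup1 at 99.6% identity, fell 2.86-fold (adjusted p = 0.00011), and Mup16 fell 6.997-fold (adjusted p = 0.00034).

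Mup18 showed the steepest fall of the members. It had 3.13, 8.35, 9.05, 11.7 and 26.2 CPM in WT vehicle livers and 0.099, 0.204, 0.307, 0.411 and 0.570 CPM in WT CORT livers, the latter from 2 to 11 counts per mouse. The groups lay far apart, with a 36.2-fold difference (log2 fold change -5.18, 95% interval -6.35 to -4.00), as a description. Mup10, with only 4 to 43 counts in any WT liver, fell by 1.11 on the log2 scale (adjusted p = 0.027), and its groups overlapped. This call did not hold without L3, L4, L17 or L20, when the adjusted p was 0.050, 0.053, 0.056 and 0.053. In the 6 other near-identical members every CORT value lay below every vehicle value, for Mup18 as a description only. This pattern was found in 7.08% of all genes tested, while 7.03% of all genes lay higher with CORT without overlap.

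The divergent members did not share this fall. Mup20 had 546, 566, 585, 709 and 816 CPM in WT vehicle livers and 809.99, 903, 1024, 1102 and 1641 CPM in WT CORT livers. Only the lowest CORT liver lay below the highest vehicle liver, by a few CPM. Mup20 rose 1.70-fold (log2 fold change 0.77, 95% interval 0.35 to 1.18, adjusted p = 0.0090). Mup3 had 5131, 6106, 6121, 6239 and 6504 CPM with vehicle and 5400, 6154, 6465, 6762 and 7422 CPM with CORT, so that the groups overlapped widely. Its log2 fold change was 0.10 with a 95% interval from -0.33 to 0.52 (adjusted p = 0.80). The mean of Mup21 was 215 ± 34.3 CPM in vehicle and 216 ± 48.7 CPM in CORT livers (SD, n = 5), and its interval from -0.72 to 0.74 left room for changes in either direction.

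**Figure D3:**
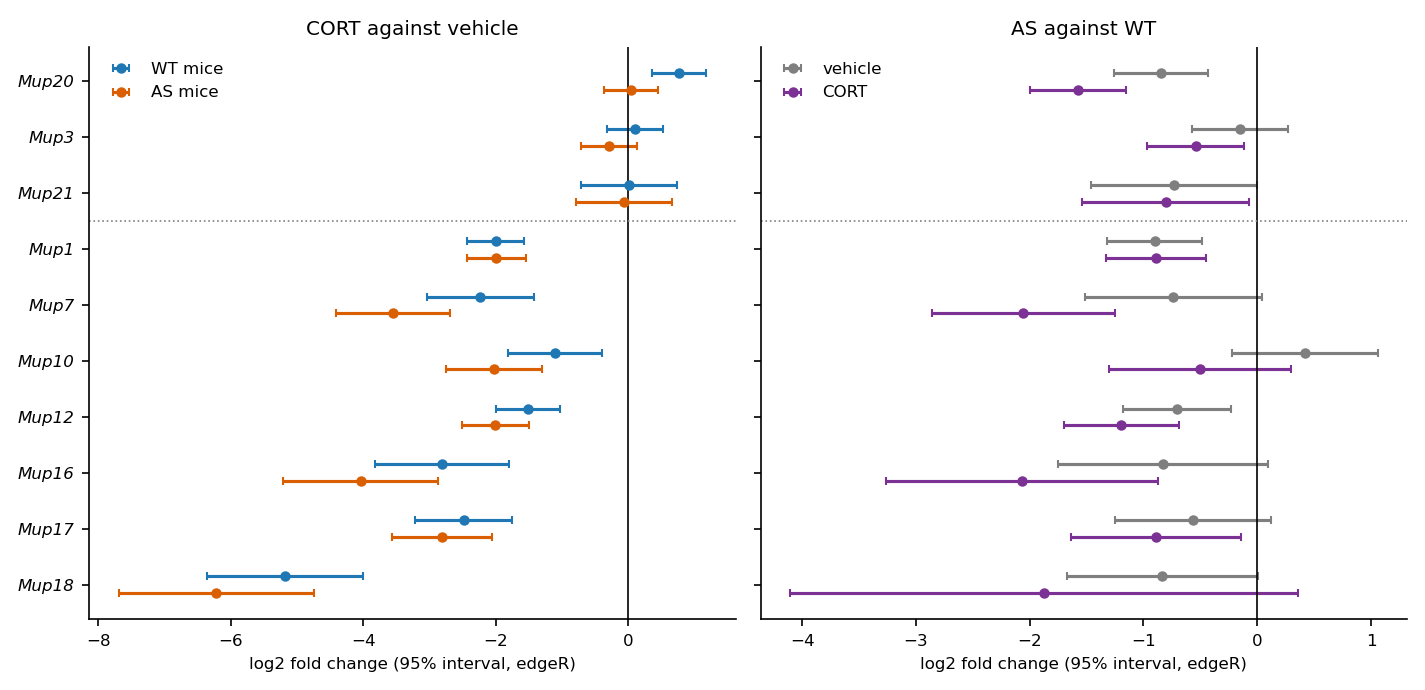
Log2 fold change of each member with its 95% interval, on the left for CORT against vehicle in WT and AS mice and on the right for AS against WT mice with vehicle and with CORT, with the divergent members above the dotted line. Mup1 to Mup18 lie left of 0 for CORT in both genotypes, the interval of Mup20 lies right of 0 in WT mice and spans 0 in AS mice, and with CORT all 10 values for AS against WT are below 0.

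The same comparison was made in AS mice, where CORT altered 27.5% of all genes tested, 15% with lower and 12.6% with higher expression. The 7 near-identical members again fell, and none of the divergent members passed the threshold. The median log2 fold change of the 10 members was -2.02, compared to -0.0032 for all genes tested. Mup10 and Mup18 passed the filter only through the vehicle groups. This median, their falls and their lack of overlap are therefore again a description. In all 7 near-identical members the CORT livers lay below the vehicle livers without overlap, a pattern found in 9.11% of all genes, and 7.51% lay higher without overlap.

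Mup7 had 718, 873, 1078, 1326 and 1365 CPM in AS vehicle livers and 25.7, 41.9, 111, 125 and 155 CPM in AS CORT livers. The 2 lowest CORT values were those of L8 and L10, and the other 3 were still below every other group. Mup7 was 11.7-fold lower with CORT (log2 fold change -3.55 ± 0.411 SE, adjusted p = 2.56e-06) and 8.17-fold lower without L8 and L10 (adjusted p = 3.88e-06). Mup1 fell 3.97-fold, from 44.1 ± 9.69 to 11.1 ± 3.44 CPM (SD, n = 5, adjusted p = 9.7e-07), and Mup12 fell 4.02-fold (adjusted p = 4.54e-06). Mup16 fell from 25.2 ± 7.12 to 1.55 ± 1.53 CPM, and its reads were absent in L8. Its log2 fold change of -4.04 became -3.29 without L8 and L10. This was the upper end of its range, -5.44 to -3.29, over the settings tried other than leaving out a single mouse. Mup17 fell by 2.81 on the log2 scale (adjusted p = 9.8e-06). Mup10 fell by 2.03 on the same scale, as a description. Mup18 fell from 119, 72, 132, 152 and 193 counts in the vehicle mice to 0, 0, 1, 1 and 6 counts in the CORT mice, so that 4 of 5 CORT livers were under the floor of 3 counts. Its fitted log2 fold change was -6.22 with a 95% interval from -7.69 to -4.74, as a description. It rested on the 6 counts of L7, and was -7.69 without this mouse, and it was -5.48 without L8 and L10.

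Mup20 did not differ beyond the spread of the mice with CORT in AS liver. Levels were 299, 329, 354, 358 and 450.3 CPM with vehicle and 239, 301, 374, 401 and 525 CPM with CORT. The log2 fold change was 0.04 with a 95% interval from -0.37 to 0.45 (adjusted p = 0.91). Mup3 had 4767 to 6074 CPM with vehicle, while the CORT mice had 2136, 2929, 5103, 5618 and 6349 CPM. The low pair was L10 and L8. The log2 fold change of Mup3 was -0.29 (adjusted p = 0.31), and it became 0.08 without these mice (adjusted p = 0.63). Mup21 had 102 to 158 CPM with vehicle and 29.2, 57.1, 144, 176 and 214 CPM with CORT, again with L10 and L8 lowest. Its log2 fold change of -0.06 (adjusted p = 0.92) became 0.47 without them (adjusted p = 0.083).

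AS and WT mice were then compared within each treatment. With vehicle, 0.0163% of all genes tested, which is 2 genes, passed the threshold, Ube3a among them, and none of the 10 members did. A share of 0.00815% was higher and 0.00815% lower in AS mice. The count of genes at an unadjusted p under 0.05 was 1270, and 4 members were among them. Mup20 had 1.80-fold lower levels in AS vehicle livers, 358 ± 56.6 CPM against 644 ± 115 in WT vehicle livers (SD, n = 5), and the groups did not overlap. Its adjusted p was 0.18 with edgeR and 0.013 with the Wald test of DESeq2. Mup1 was 1.87-fold lower, also without overlap, with an adjusted p of 0.18 with edgeR and 0.0087 with DESeq2. Mup12 was 1.63-fold lower without overlap (adjusted p = 0.28). These 3 genes are set beside 0.636% of all genes that were lower in AS vehicle mice without overlap, and 1% that were higher.

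With CORT, 0.277% of all genes tested passed the threshold, 34 genes in all, and 3 of the 10 members were among them, each lower in AS mice. Of all genes, 0.171% were lower and 0.106% higher in AS mice. Mup20 was 2.98-fold lower, 368 ± 108 CPM against 1096 ± 325 CPM (SD, n = 5), with a log2 fold change of -1.58 (95% interval -1.995 to -1.16, adjusted p = 0.00075). The highest AS CORT liver, at 525 CPM, was below the lowest WT CORT liver. Without L8 and L10 the difference was 2.52-fold (adjusted p = 0.0051). Mup7 was 4.16-fold lower (adjusted p = 0.022), but its adjusted p was 0.12 in a fit of only these 2 groups and 0.087 and 0.074 without L5 or L12. Mup12 was 2.29-fold lower (adjusted p = 0.041), a call that did not hold in 13 of 29 alternatives, among them the fit without L8 and L10, where it was 1.72-fold lower (adjusted p = 0.056). Values without overlap and lower in AS mice were found in 5 members, Mup20, Mup1, Mup7, Mup12 and Mup16, and in 1.15% of all genes, while 1.03% of all genes were higher without overlap and no member was. Mup1 was 1.855-fold lower with an adjusted p of 0.11, which was 0.0083 with DESeq2 and 0.042 with 1 surrogate variable. The log2 fold changes of the 10 members ran from -2.07 in Mup16 (adjusted p = 0.18) to -0.50 in Mup10 (adjusted p = 0.83), with a median of -1.04 beside 0.00090 for all genes. Without L8 and L10 they ran from -1.54 in Mup7 to -0.17 in Mup3 with a median of -0.70, and Mup16 went from 4.19-fold to 2.49-fold lower.

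Averaged over both treatments, 40 genes or 0.326% passed the threshold, and 4 members were lower in AS mice. They were Mup20 (log2 fold change -1.21, adjusted p = 0.00022), Mup1 (-0.90, adjusted p = 0.0095), Mup12 (-0.95, adjusted p = 0.013) and Mup7 (-1.40, adjusted p = 0.025). The call of Mup7 did not hold without L5, L9 or L12, with adjusted p-values of 0.062, 0.056 and 0.058. Mup3, the member with the most counts, had a log2 fold change of -0.35 (adjusted p = 0.40) and Mup21 one of -0.77 (adjusted p = 0.25). Comparisons that use the same mice are not independent of each other.

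Whether the response to CORT differed between AS and WT mice was tested by the interaction. With edgeR 0 genes passed the threshold, although 995 had an unadjusted p under 0.05, and DESeq2 called 10 genes and limma-voom 1 gene. No member was called by any of these tools. Mup20, called in WT but not in AS liver, had an interaction of -0.73 on the log2 scale (95% interval -1.31 to -0.15, adjusted p = 0.51). Mup7 had an interaction of -1.32 (95% interval -2.42 to -0.21, adjusted p = 0.54), and -0.79 without L8 and L10 (adjusted p = 0.48). Mup1 had one of 0.01 (95% interval -0.61 to 0.63, adjusted p = 0.99). The effect of CORT on these genes was therefore not shown to differ between the genotypes.

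Because only part of the reads of near-identical copies can be placed on a single gene, the 7 near-identical members were also summed in each mouse, as a description without a test. The sum was 2052 ± 499.7 CPM in WT vehicle, 439 ± 166 in WT CORT, 1230.2 ± 291 in AS vehicle and 119 ± 66.6 in AS CORT livers (SD, n = 5). CORT livers were 4.68-fold lower in WT and 10.3-fold lower in AS mice, in both without overlap. AS CORT livers ranged from 44.3 to 194 CPM and were all below the WT CORT livers, which ranged from 279 to 619 CPM. The 10 members together held 0.924 ± 0.101% of the counts on genes in WT vehicle, 0.800 ± 0.121% in WT CORT, 0.737 ± 0.0971% in AS vehicle and 0.476 ± 0.182% in AS CORT livers. Most of these counts were those of Mup3, and reads of shared copies that were set aside are not in these shares.

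The share of reads that the counting step set aside as not aligned moved with these values. It was 5.39% to 8.93% in WT vehicle, 3.20% to 4.77% in WT CORT, 4.52% to 6.68% in AS vehicle and 1.49% to 3.23% in AS CORT livers. L10 and L8 had the lowest shares of all 20 livers, 1.49% and 1.93%, as they had the lowest values of Mup3 and Mup21. The share of reads set aside as not uniquely aligned, in contrast, was 6.71% to 8.44% with no such order of the groups. Reads from MUP copies among those set aside cannot be counted in the deposited table, and their part in the results was not tested.

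**Figure D4:**
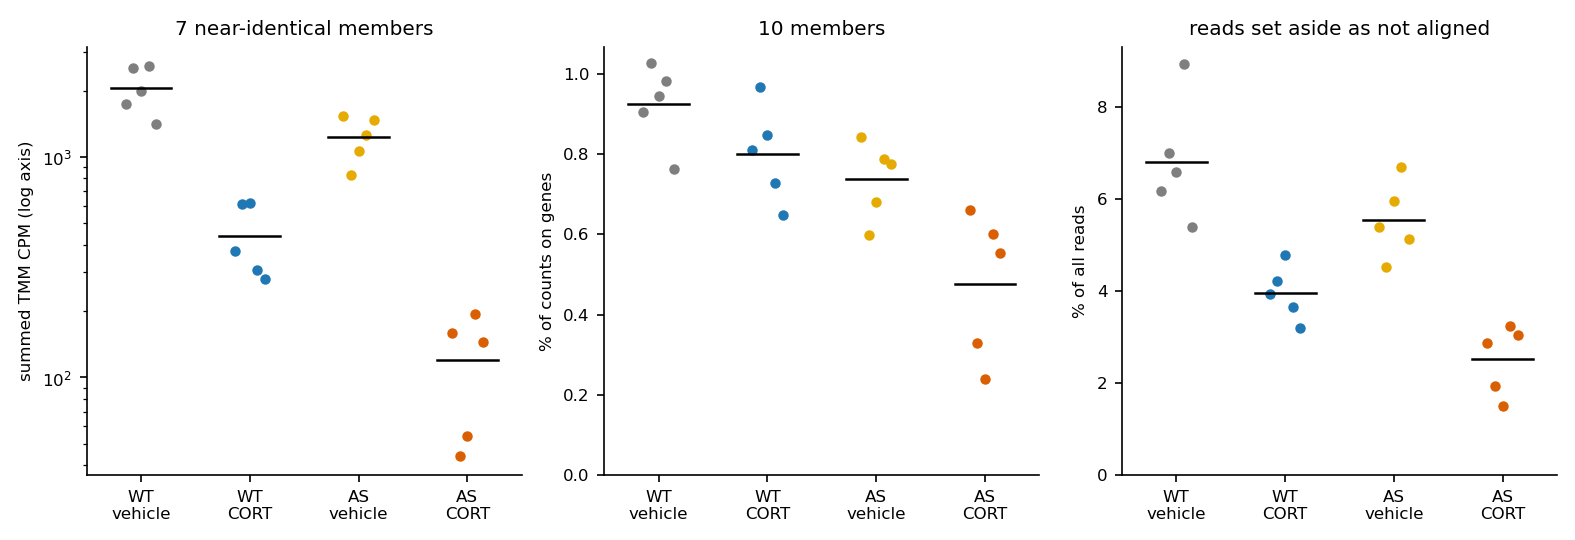
For each mouse, the summed level of the 7 near-identical members in CPM on a log axis (left), the percent of counts on genes held by all 10 members (middle) and the percent of reads set aside as not aligned (right), with bars at the mean of the 5 mice. In all 3 panels WT vehicle has the highest and AS CORT the lowest mean, and the summed near-identical members do not overlap between vehicle and CORT within a genotype.

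The other annotated Mup genes were looked at for the same pattern. Of these 12 genes, 7 passed the filter, and all 7 fell with CORT in both WT and AS liver. Mup14, the most abundant of them at 349 ± 107 CPM in WT vehicle livers (SD, n = 5), fell 4.41-fold in WT (adjusted p = 2.52e-05) and 11.4-fold in AS mice (adjusted p = 9e-08), and with CORT was 5.06-fold lower in AS than in WT mice (adjusted p = 0.00075). Mup22 fell least, 1.55-fold in WT (adjusted p = 0.045) and 2.05-fold in AS mice (adjusted p = 0.0012). In WT mice the log2 fold change was -4.06 for Mup15, -1.96 for Mup11, -1.74 for Mup19, -1.67 for Mup9 and -1.44 for Mup2, with adjusted p-values from 1.53e-05 to 0.026. In AS mice it was -5.37, -3.16, -3.08, -2.44 and -1.64 in the same order. They share reads with the near-identical members and so do not count as separate evidence.

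Genes that act on MUP expression were described from lists, whose counts are to be read beside the 18.6% of all genes that CORT altered in WT and the 27.5% in AS mice. Of 16 measured genes of the growth hormone and STAT5 axis, 1 rose and 2 fell with CORT in WT mice and 2 rose and 3 fell in AS mice, with a median log2 fold change of -0.09 and -0.07, so that the share of this list that passed the threshold was near that of all genes. Ghr, the growth hormone receptor, fell in both genotypes, with a log2 fold change of -0.66 in WT livers (adjusted p = 1.15e-05) and of -0.59 in AS livers (adjusted p = 2.22e-05). Prlr, the prolactin receptor, rose by 0.53 (adjusted p = 0.035) and Socs3, a feedback inhibitor of cytokine signaling, fell by 0.94 (adjusted p = 0.028) in WT mice. In AS mice Prlr had a value of 0.32 (adjusted p = 0.18) and Socs3 one of -0.08 (adjusted p = 0.86). Stat5b, the transcription factor downstream of Ghr, had a log2 fold change of -0.36 in WT mice (adjusted p = 0.17) and fell by 0.68 in AS mice (adjusted p = 0.0068). Igf1, the main endocrine target of growth hormone, had values of 0.15 (adjusted p = 0.25) in WT livers and of -0.0032 (adjusted p = 0.98) in AS livers. The feedback inhibitors Socs2 (0.34 and -0.89) and Cish (-0.17 and -0.72) and the repressor Bcl6 (-1.94 and 0.90) passed the threshold in neither genotype.

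Among 13 regulators of Mup genes, 2 rose and 1 fell in WT and 3 rose and 2 fell in AS mice. Nr3c1, which encodes GR, the receptor for CORT, fell slightly, with log2 fold changes of -0.15 in WT (adjusted p = 0.020) and -0.22 in AS livers (adjusted p = 0.00077). Zhx2, known as a regulator of MUP levels between strains, had values of -0.14 and -0.12 that did not pass the threshold.

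Of 20 male-biased liver genes measured, 1 rose and 6 fell with CORT in WT mice and 9 fell in AS mice, and 6 were lower in AS than in WT mice with CORT, beside 0.171% of all genes. In WT mice the log2 fold change was -1.501 for Cyp2u1, -2.27 for Ugt2b38 and -1.19 for Nudt7 (adjusted p from 4.26e-06 to 0.00012). Hsd3b5, a steroid-metabolizing enzyme of male liver, fell by 0.77 (adjusted p = 0.043). Cyp4a12a, a fatty acid hydroxylase of male liver, had a value of 0.12 in WT mice (adjusted p = 0.45) and fell by 0.45 in AS mice (adjusted p = 0.0032). Elovl3 had values of -0.11 and -1.97 that passed the threshold in neither genotype. Of 20 female-biased genes 9 were measured above the filter, of which 3 rose and 1 fell in WT mice and 6 rose and 2 fell in AS mice. A gene near 0 with vehicle, such as Sult1e1, could pass the filter only through the CORT groups, so that these counts are partly set by the filter. Those that rose included Sult1e1, the estrogen sulfotransferase, from 0.0981 ± 0.0755 to 22.2 ± 11.8 CPM in WT mice (SD, n = 5, adjusted p = 2.70e-08) with vehicle levels near the floor. The steroid hydroxylase Cyp17a1 rose by 5.57 on the log2 scale (adjusted p = 1.59e-11).

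Known targets of GR were described as well. Of 14 such genes 8 rose in WT and 10 rose in AS mice, with none lower, and the median log2 fold change was 1.38 and 1.79. Fkbp5, a GR cochaperone, rose by 3.43 on the log2 scale in WT mice (adjusted p = 2.06e-07), Mt2, a metallothionein, by 4.78 (adjusted p = 2.47e-07) and Tsc22d3, an anti-inflammatory leucine zipper protein, by 1.25 (adjusted p = 2.47e-07). Of 12 other lipocalins and binding proteins measured, 2 rose and 2 fell in WT mice, with a median of -0.05. Lcn2 rose by 2.68 (adjusted p = 8.62e-05), and Obp2a by 3.96 (adjusted p = 4.69e-05). Of 18 abundant secreted hepatocyte proteins 4 rose and 1 fell in WT mice, beside 18.6% of all genes, and 6 rose and 1 fell in AS mice, beside 27.5% of all genes. Apoc3, Hp and Serpina3k rose by 0.99, 0.96 and 0.85 in WT mice (adjusted p from 1.20e-07 to 2.09e-05).

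Likeness between genes was described by Pearson's r of log2 CPM after the mean of each group was removed, over the 20 livers, which share their libraries and depth. The near-identical members had r between 0.07 and 0.91 with each other, with a median of 0.67 over 21 pairs. Mup3 and Mup21 had median values of 0.82 and 0.80 with the near-identical members, and Mup20 one of 0.59. Outside the family, the genes most like Mup3 were Serpind1 (0.88), Selenbp2 (0.87), Ces3a (0.86), Gm49431 (0.85) and Hsd11b1 (0.85), the last encoding the enzyme that regenerates active glucocorticoid, and the least like was Capn10 (-0.84). Mup21 had nearly the same neighbours, Selenbp2 (0.89), Ces3a (0.86), Gm49431 (0.85), Serpind1 (0.85) and Rnf5 (0.82), and Capn10 (-0.86) at the other end. Mup20 was most like Serinc3 (0.83), Ubl5 (0.76), Slc25a48 (0.76), Hp (0.74) and Fam234b (0.74), and least like Fmo4 (-0.79). The summed near-identical members were most like Cela1 (0.86), Ugt2b1 (0.83), 9330020H09Rik (0.82), Sult2a8 (0.81) and Ces3a (0.81), and least like Pak1 (-0.85). The values of Mup3 and Mup21 rested in large part on L8 and L10, and those of the sum and of Mup20 less so. The AS CORT group held 87.6% of the squared deviations of Mup3, 84.8% of those of Mup21, 62.9% of those of the sum and 41.5% of those of Mup20. Over the 18 livers without L8 and L10, r for the genes named as most like ran from 0.31 to 0.61 for Mup3, from 0.39 to 0.69 for Mup21, from 0.56 to 0.71 for the sum and from 0.58 to 0.73 for Mup20. Within the family the median was then 0.54 between near-identical members, and 0.55 for Mup3, 0.50 for Mup21 and 0.23 for Mup20 with these members.

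Promoters were compared because the members moved apart with CORT. RefSeq promoters on GRCm38.p6, from 250 bases before to 50 after the start site, were at hand for 6 of the 10 members. Mup20, the other divergent member, had none, nor had Mup1, Mup12 and Mup16. Those of Mup3 and Mup21, which CORT left without a call, are shown beside that of Mup18, which fell most. They were picked by these outcomes, so that their contrast is no test. Mup3 and Mup21 are alike in sequence and do not count as separate cases. Capitals mark the hexamer TGTTCT, an arm of the glucocorticoid response element. The windows are chr4:62087268-62087567 for Mup3, chr4:62150792-62151091 for Mup21 and chr4:61674045-61674344 for Mup18, each read from the minus strand:

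Mup3: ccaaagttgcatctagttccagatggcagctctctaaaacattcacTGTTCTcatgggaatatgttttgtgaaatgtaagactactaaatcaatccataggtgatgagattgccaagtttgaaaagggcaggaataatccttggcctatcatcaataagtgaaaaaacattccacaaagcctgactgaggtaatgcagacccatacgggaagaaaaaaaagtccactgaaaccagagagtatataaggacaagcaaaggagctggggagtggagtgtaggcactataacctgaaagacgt
Mup21: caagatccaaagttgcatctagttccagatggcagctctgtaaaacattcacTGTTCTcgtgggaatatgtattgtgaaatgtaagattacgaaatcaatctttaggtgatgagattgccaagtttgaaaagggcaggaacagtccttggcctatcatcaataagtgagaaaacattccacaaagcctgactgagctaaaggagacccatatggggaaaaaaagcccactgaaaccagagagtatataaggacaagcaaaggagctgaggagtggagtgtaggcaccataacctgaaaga
Mup18: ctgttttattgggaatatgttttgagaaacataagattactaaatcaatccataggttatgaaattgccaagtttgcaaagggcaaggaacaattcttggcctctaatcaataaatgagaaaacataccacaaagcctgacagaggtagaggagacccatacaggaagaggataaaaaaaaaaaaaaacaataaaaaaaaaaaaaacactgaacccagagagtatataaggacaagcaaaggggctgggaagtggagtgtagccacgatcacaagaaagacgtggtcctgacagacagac

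The hexamer was found at base -204 of Mup3 and -198 of Mup21 from the start site and in none of the other 4 members (Mup7, Mup10, Mup17 and Mup18), while 19% of all 32851 promoters hold it on either strand. The windows of Mup10 and Mup17 begin within or after the bases that correspond to this position, so that they could not show the hexamer there. The full palindromic element, which contains the hexamer, was in none of the 6 members and in 0.00913% of all promoters. No member held the STAT motif TTCNNNGAA (8.3% of all promoters), the HNF4 motif CAAAGTCCA (0.475%), the C/EBP motif TTGCGCAA (0.183%) or the TATA box letters TATAAA (13.6%). Motifs were searched on both strands and by these exact letters only. The windows of Mup3, Mup21 and Mup18 shown above hold the letters tatataag, so that a TATA box was not shown to be absent. A match to these letters is a description and not a binding site.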

How the data were processed

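RNA-seq of 20 livers of the continuous CORT cohort was used, and hippocampal libraries only for the range of MUP counts there. Reads of stranded 100-base paired-end mRNA libraries were aligned by the authors to mm10 with STAR and counted per gene with HTSeq-count, and the deposited table holds these raw read counts, with reads set aside per library. The annotation release and strand setting were not given in the sources used here. Groups were taken from the labels, and nothing in them pairs mice across groups. 0 columns belonged to no sample. Symbols, positions, transcripts and coding sequences came from GENCODE M21 on GRCm38, and 55394 of 55573 gene IDs had a symbol. A table of proteins was not used here, so coding sequences were compared instead.

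With a filter set after the description in the study's methods, which was not matched to its own gene set, a gene was tested if 3 or more mice of any group had over 20 counts after median-of-ratios scaling (12273 genes). Counts were normalized by TMM and fitted with edgeR 4.0.16 in R 4.3.3 (quasi-likelihood test, one coefficient per group, 4 groups of 5 mice in the same fit), with Benjamini-Hochberg adjustment and a threshold of 0.05. Levels per kilobase used the merged exon length, log2 CPM a prior count of 2, and 95% intervals the moderated degrees of freedom. Alternatives were DESeq2 1.42.0, its size factors, upper-quartile normalization, library sizes without Mup counts, no filter, only the groups compared, limma-voom weights (limma 3.58.1), 1 surrogate variable (sva 3.50.0), an adjusted p under 0.01 and each mouse left out. Leaving out L8 and L10 was added after the data were seen. The fit was tested on simulated data. Named genes were the members, other Mup genes that passed the filter, 3 genes per list with the smallest p for CORT in WT mice, a fixed set of regulators, and the 5 genes most and 1 least like a member. Some genes that this rule names are not reported here. Members and lists were chosen with earlier results of these data known.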

Additional observations from a re-analysis of the deposited data

Results flagged for a closer look

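In 4 of the 40 groups of 5 livers examined for the members, a single liver lay further from the others than Dixon's test allows at the 95% level, while chance alone marks about 1 in 20 groups. They were Mup3 in the WT vehicle liver L17 (5131 CPM, the others 6106 to 6504), Mup10 in the WT vehicle liver L1 (0.962 CPM, the others 1.89 to 2.11), Mup16 in the WT CORT liver L12 (11.5 CPM, the others 3.62 to 5.91) and Mup18 in the AS CORT liver L7 (0.314 CPM, the others 0 to 0.0535).

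MUP reads were also present in hippocampal libraries, which were used in no comparison here. In the continuous cohort Mup3 had 174 counts, Mup20 30 counts and Mup7 15 counts in H1, where the median of the 20 libraries was 1, 0 and 0. In the acute cohort Mup20 had 34 counts and Mup3 26 counts in its H1, where the median of the 24 libraries was 0 and 1. The hepatocyte gene Alb had 1931 counts in the continuous H1 and 665 in H2, against a median of 2, and 176 counts in the acute H1 against a median of 15. The part of liver RNA in these counts was not tested.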

How the results depend on the processing

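No paired analysis was possible because the labels carry no number that links mice across groups. The 7 members that fell with CORT in WT and in AS mice kept their direction in every alternative, and the call was lost only for Mup10 in WT mice. Of 1718 alternative values for member fold changes, 1651 kept direction and call, 23 lost the call, 4 gained it and 40 turned direction, all 40 in results that passed no threshold. Of 80 mean levels under other scalings, 8 moved by more than the SD and the others by less.

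The cause of the following changes was not tested. For AS against WT mice with vehicle, DESeq2 called 2 members and 54 genes, an adjusted p under 0.01 left 1 gene, the 2 groups alone gave 0, 1 surrogate variable gave 4, and leaving out a mouse gave 1 to 4 genes. With CORT, an adjusted p under 0.01 or only the 2 groups left 1 member, leaving out a mouse left 1 to 3 members, DESeq2 and 1 surrogate variable called 4 members with Mup1 added, and the gene count was 10 at an adjusted p under 0.01, 92 with DESeq2, 78 with limma-voom, 85 with 1 surrogate variable and 12 to 63 when a mouse was left out. Over both treatments an adjusted p under 0.01 left 2 members and 12 genes, DESeq2 called 96 genes, 1 surrogate variable 102, and leaving out a mouse 16 to 41. For the interaction DESeq2 called 10 genes, no filter 2, limma-voom 1, 1 surrogate variable 2, fits without a mouse 0 to 1 and the fit without L8 and L10 14. At an adjusted p under 0.01, CORT altered 1336 genes in WT and 2005 in AS mice. As a share of all reads, the members held 0.732% in WT vehicle, 0.652% in WT CORT and 0.591% in AS vehicle livers.

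Directions turned as follows on the log2 scale. For CORT in WT mice, Mup21 became -0.022 with upper-quartile normalization and ran from -0.10 to 0.11 when a mouse was left out. For CORT in AS mice, Mup20 became -0.0057 with upper-quartile normalization and ran from -0.12 to 0.17, Mup3 became 0.081 without L8 and L10, and Mup21 became 0.47 without them and ran from -0.34 to 0.20. Over both treatments Mup10 became 0.016 without L8 and L10 and ran from -0.17 to 0.059. The interaction of Mup21 became 0.46 and that of Mup17 0.13 without L8 and L10, and that of Mup21 ran from -0.34 to 0.20 when a mouse was left out. The interaction of Mup1 became -0.0027 with upper-quartile normalization, -0.039 with limma-voom and -0.088 with 1 surrogate variable, and ran from -0.12 to 0.17.

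Mup10 and Mup18 rested on few counts, and single near-identical members on reads that other copies share.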
